A study of Mus musculus with 12 samples.

Results

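The expression of 10 genes that the extracellular signal-regulated kinase (ERK) pathway is known to induce was followed in RNA-Seq counts of mouse primary keratinocyte cultures, namely *Etv4*, *Etv5*, *Spry2*, *Spry4*, *Dusp4*, *Dusp5*, *Dusp6*, *Phlda1*, *Egr1* and *Ier3*. They were chosen by name from the gene names of the count table, so they make up 10 of the 21947 loci counted, and each of the 10 was counted on a locus of its own. The list was drawn up with earlier results of these data known, so tests and counts of its members are not independent of the data. *Etv4* was in addition picked on these data for lower counts in siSbsn in both batches, so its values are given here without a test of any comparison that uses the siRNA treatment. The cultures came from newborn BALB/c mice and were taken from 0.05 mM to 0.12 mM calcium, which starts keratinocyte differentiation. They had been transfected with short interfering RNAs (siRNA), either 75 pmol of a pool against suprabasin (siSbsn), a secreted protein of the differentiating epidermis, or 75 pmol of a pool without a target (siControl), with harvest at 48 hours after transfection, or they had received no siRNA. Every condition had 2 libraries in batch 1, and batch 2 added 3 libraries with siControl and 3 with siSbsn, which makes 12 in all. All conditions share the strain, the tissue and the calcium step, 1 pool was used for each siRNA condition, and no mutant animals were used. The labels do not say whether libraries of a condition came from separate cultures or animals, so the p-values below measure only the spread between these libraries.

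ERK is the last kinase of the cascade that carries growth factor signals from receptors through RAS, RAF and MEK to the nucleus. Active ERK switches on immediate early genes such as *Egr1* within minutes and, later, genes that turn the signal down again: Sprouty proteins act on the cascade close to the receptor and to RAS and RAF, and dual-specificity phosphatases take the phosphates off the kinase itself. *Etv4* and *Etv5* code for ETS transcription factors of the PEA3 family, which are themselves targets of the pathway and are widely read as markers of its activity. In the epidermis the cascade is driven mainly by the epidermal growth factor receptor and is linked to proliferation of basal keratinocytes.

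Promoter sequences were found in the RefSeq table of build GRCm38.p6 for 5 of the 10 genes, *Dusp5*, *Dusp6*, *Etv5*, *Ier3* and *Spry2*, in 6 windows of 250 bases before a transcription start, since *Etv5* has 2. The table used here has no entry for *Etv4*, *Phlda1*, *Egr1*, *Spry4* or *Dusp4*. The following 3 windows are shown because *Ier3* was among the genes with lower counts in siSbsn, *Dusp5* had the largest difference between the batches, and *Dusp6* is the phosphatase most specific for ERK. All 3 lie on the plus strand and are written 5′ to 3′, at chr17:35821463-35821712 (*Ier3*), chr19:53528895-53529144 (*Dusp5*) and chr10:99262981-99263230 (*Dusp6*). Capitals mark the ETS core GGAA, or TTCC where it lies on the other strand, and the CArG box, the motif bound by serum response factor.
Ier3: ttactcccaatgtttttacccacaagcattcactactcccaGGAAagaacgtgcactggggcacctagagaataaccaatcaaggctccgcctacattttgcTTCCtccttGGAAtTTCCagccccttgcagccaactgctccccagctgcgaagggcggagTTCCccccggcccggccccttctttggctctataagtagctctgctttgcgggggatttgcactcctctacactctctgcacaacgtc
Dusp5: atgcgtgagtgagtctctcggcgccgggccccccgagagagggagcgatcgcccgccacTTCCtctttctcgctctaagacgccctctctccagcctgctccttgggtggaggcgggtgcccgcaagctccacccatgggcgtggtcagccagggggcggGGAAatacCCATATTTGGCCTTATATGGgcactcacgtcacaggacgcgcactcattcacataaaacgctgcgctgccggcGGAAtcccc
Dusp6: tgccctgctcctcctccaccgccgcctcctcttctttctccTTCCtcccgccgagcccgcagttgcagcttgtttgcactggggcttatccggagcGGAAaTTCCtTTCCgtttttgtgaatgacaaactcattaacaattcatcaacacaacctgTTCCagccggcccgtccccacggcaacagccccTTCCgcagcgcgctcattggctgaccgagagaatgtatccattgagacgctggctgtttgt

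The *Dusp5* window holds 2 CArG boxes that adjoin each other, at bases -82 to -73 and -72 to -63 from the start, and it was the only 1 of the 6 windows with this motif, which 1.47% of all 32851 promoter windows of this length hold. The ETS core was in 5 of the 6 windows, but it is so short that 93.4% of all windows hold it. The *Ier3* window has 5 of these cores, the *Dusp6* window 6 and the *Dusp5* window 3. A longer ETS motif, CCGGAA, is held by 12% of all windows and was in 0 of the 6. The AP-1 motif (4.46% of all windows) and the cyclic AMP response element (1.55%) were in 0 of the 6 as well. These are matches of letters on either strand and not binding sites.

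Total counts ranged from 27934836 to 49553923 per library, and the members had between 65 and 21064 reads per library. Counts are given below as CPM, reads per 1000000 of the effective library size. In batch 2 *Sbsn* was at 332 to 459 CPM in siControl and at 121 to 125 CPM in siSbsn. In batch 1 it was at 1189 and 1356 CPM in siControl, and siSbsn batch 1 replicate 2 had 696 CPM. The highest level of all, 1965 CPM, was in the library labelled siSbsn batch 1 replicate 1, so its *Sbsn* level goes against its label and the results over both batches are also given without it. Another library that stood apart was siControl batch 1 replicate 1, in which the slope of log2 counts on the log10 of transcript length was -1.66, while the slopes of the other libraries lay between -0.42 and 0.49. The 7 keratinocyte markers summed to 16606 to 47250 CPM, led by *Krt5* and *Krt14*, which were high in every library. The differentiation markers among them were far lower, with *Krt1* at 26.4 to 335 CPM, *Krt10* at 15.9 to 73.8 CPM and *Ivl* at 22.1 to 187 CPM. The 5 melanocyte markers summed to 684 to 1016 CPM. In batch 1 the 6 fibroblast markers summed to 488 to 1163 CPM in siSbsn, 413 to 426 CPM in siControl and 482 to 928 CPM without siRNA. In batch 2 they summed to 358 to 393 CPM in siSbsn and 373 to 420 CPM in siControl. The 6 immune markers summed to 1.57 to 10 CPM and the 4 endothelial markers to 1.22 to 3.21 CPM, with the Langerhans cell marker *Cd207* at 0 in every library. The part of other cell types in the differences below was not tested, and in bulk RNA fewer cells of a type and less RNA per cell cannot be told apart.

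**Figure D1:**
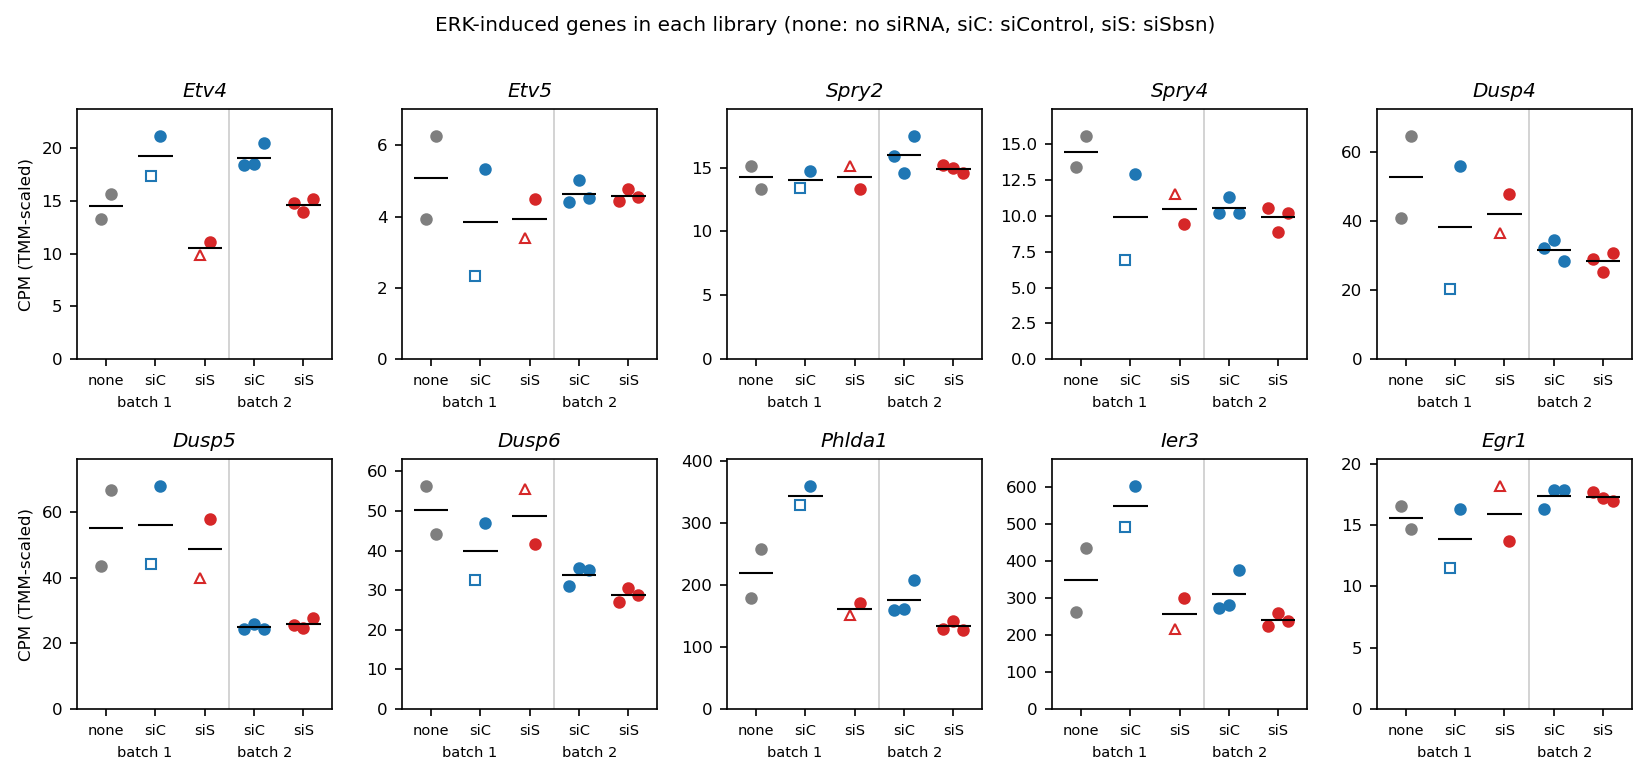
Level of each of the 10 genes in CPM (vertical axes, from 0) in the 12 libraries, by condition and batch (horizontal axis). Each point is 1 library and the bar is the mean of its group. The open square is siControl batch 1 replicate 1 and the open triangle is the library labelled siSbsn batch 1 replicate 1. *Etv4*, *Phlda1* and *Ier3* have all siSbsn points below all siControl points of the same batch, and the other 7 genes do not in both batches.

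Per kilobase of transcript, the 2 immediate early genes *Ier3* and *Phlda1* were by far the most abundant. The median over the 12 libraries was 245 CPM per kb for *Ier3* and 85.3 CPM per kb for *Phlda1*, and neither range overlapped that of the next gene. *Dusp5* (13.6 CPM per kb), *Dusp6* (12.6 CPM per kb) and *Dusp4* (12.2 CPM per kb) followed, with ranges that overlapped each other. *Spry2* was at 7.10 and *Etv4* at 6.43 CPM per kb, *Spry4* at 2.18 and *Etv5* at 1.13 CPM per kb, and the only break in this lower part was between *Etv4* and *Spry4*. *Egr1* has no value per length, because its annotated transcript is longer than the locus counted. In plain CPM the highest library was 1.31 times the lowest for *Spry2*, the least variable gene, and 3.19 times the lowest for *Dusp4*, the most variable.

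Of the ETS factors, *Etv4* was low in siSbsn in both batches, as its selection required, and *Etv5* was not. The *Etv4* locus, chromosome 11 of mm10 from 101769748 to 101785310 on the minus strand, has 13 exons in its longest transcript. Batch 1 read 17.4 and 21.1 CPM with siControl, against 9.92 and 11.1 CPM with siSbsn. Batch 2 read 18.4, 18.4 and 20.5 CPM with siControl, against 14.8, 13.9 and 15.2 CPM with siSbsn. No siSbsn library reached a siControl library in either batch, which is what the gene was picked for. The lowest of all 12 values was in the library labelled siSbsn batch 1 replicate 1, the library with the highest *Sbsn*. The siSbsn level was 67.4% of siControl over both batches (log2 fold change -0.57), 53.9% in batch 1 (-0.89) and 77.2% in batch 2 (-0.37). Leaving out any of the 10 siRNA libraries gave values between -0.61 and -0.47. It was -0.49 without the library labelled siSbsn batch 1 replicate 1, -0.57 without siControl batch 1 replicate 1, and -0.46 after the trend of each library on transcript length was removed. Without siRNA *Etv4* was at 13.3 and 15.7 CPM, between the 2 siRNA conditions of batch 1. The rule did not use these 2 libraries, but a place between the conditions depends on the gap for which *Etv4* was picked.

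*Etv5*, the closest relative of *Etv4* among the members, lies on the minus strand of chromosome 16 from 22381313 to 22439570 and was the least abundant member. The siControl libraries of batch 1 had 2.34 and 5.35 CPM, against 3.39 and 4.48 CPM with siSbsn. With siControl the 3 libraries of batch 2 had 4.42, 5.02 and 4.51 CPM, against 4.45, 4.77 and 4.56 CPM with siSbsn. The conditions overlapped in both batches, and the log2 fold change over both was 0.0053 (standard error 0.19, q = 0.987 by edgeR). In batch 2, where the spread was smallest, it was -0.018 with a standard error of 0.10. The widest gap between libraries of 1 condition was in siControl of batch 1, where the library with the steep length trend held the lower value.

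The Sprouty genes, whose products inhibit receptor tyrosine kinase signalling, overlapped between the conditions in both batches. *Spry2*, on the minus strand of chromosome 14 from 105891947 to 105896819, had 13.4 and 14.7 CPM with siControl, against 15.1 and 13.3 CPM with siSbsn, in batch 1. The corresponding levels in batch 2 were 15.9, 14.6 and 17.5 CPM, against 15.2, 15 and 14.6 CPM with siSbsn. Over both batches its log2 fold change was -0.045 with the smallest standard error of the members, 0.085 (q = 0.741 by edgeR). *Spry4*, on the minus strand of chromosome 18 from 38586265 to 38601268, had 6.92 and 12.9 CPM with siControl, against 11.5 and 9.40 CPM with siSbsn, in batch 1. In batch 2 its 6 libraries lay between 8.87 and 11.3 CPM and the conditions overlapped. Its log2 fold change over both batches was -0.021 (standard error 0.16, q = 0.936).

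The 3 phosphatases had no difference over both batches that exceeded the spread between libraries. *Dusp4*, which acts on ERK and other mitogen-activated kinases in the nucleus, lies on the plus strand of chromosome 8 from 34807610 to 34819894. Batch 1 read 20.2 and 56.1 CPM with siControl, against 36.5 and 47.9 CPM with siSbsn, so that the 2 siControl libraries differed more than the conditions did. Batch 2 read 32.4, 34.4 and 28.5 CPM with siControl, against 29.0, 25.3 and 30.9 CPM with siSbsn. Over both batches the fitted difference was -0.032 on the log2 scale (q = 0.933 by edgeR, standard error 0.22). In batch 1 alone its direction hung on 1 library, and the 4 libraries gave 0.13 (q = 0.896). Omission of siControl batch 1 replicate 1 gave -0.42 and omission of siControl batch 1 replicate 2 gave 1.00, each with 1 siControl library left.

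*Dusp5*, a nuclear phosphatase selective for ERK, lies on the plus strand of chromosome 19 from 53529318 to 53541322, and its printed window ends upstream of the start of the counted locus. The siControl libraries of batch 1 had 44.2 and 67.9 CPM, against 39.8 and 57.8 CPM with siSbsn. In batch 2 all 6 libraries lay between 24.3 and 27.7 CPM. The conditions overlapped in both batches, with a difference of -0.038 on the log2 scale (q = 0.864 by edgeR, standard error 0.14). *Dusp6*, the cytoplasmic phosphatase of ERK, lies on the plus strand of chromosome 10 from 99263231 to 99267489. Batch 1 read 32.7 and 47.0 CPM with siControl, against 55.7 and 41.8 CPM with siSbsn. With siControl the 3 libraries of batch 2 had 31.1, 35.5 and 35.2 CPM, against 27.0, 30.7 and 28.7 CPM with siSbsn, where every siSbsn library lay below every siControl library. On the log2 scale siSbsn minus siControl was 0.27 (standard error 0.29, q = 0.651) in batch 1, -0.23 (standard error 0.076, q = 0.454) in batch 2 and -0.019 (standard error 0.14, q = 0.936) over both. The batch 2 value minus the batch 1 value, -0.51, did not pass (q = 0.342 by edgeR's interaction test).

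Among the 3 early response genes, *Phlda1* and *Ier3* were lower in every siSbsn library than in every siControl library of the same batch, and *Egr1* overlapped between them. *Phlda1*, which codes for a pleckstrin homology-like domain protein induced by growth factors, lies on the plus strand of chromosome 10 from 111506286 to 111508649. The siControl libraries of batch 1 had 329 and 360 CPM, against 152 and 172 CPM with siSbsn. The corresponding levels in batch 2 were 160, 161 and 208 CPM, against 129, 143 and 128 CPM with siSbsn. The siSbsn level was 46.2% of siControl in batch 1 and 76.2% in batch 2. This came to -0.67 on the log2 scale over both batches (unadjusted p = 0.000627, standard error 0.14), but edgeR's quasi-likelihood test with adjustment over 12857 loci gave q = 0.254, which does not pass. DESeq2 gave -0.67 with q = 0.0061, which passes. Permuting the labels within batches (exact test, two-sided) gave p = 0.0167, the smallest value that its 120 arrangements allow. This p is fixed by the order of the libraries given above and adds nothing to it. Over all 12857 loci, 4.22% were lower and 5.13% higher in that way. The other 7 members tested had p of 0.433 or more by this test, and no p was adjusted over the 9 members tested.

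*Ier3*, an early response gene whose product has been linked to survival and to the duration of ERK activity, lies on the plus strand of chromosome 17 from 35821713 to 35822911, directly downstream of its printed window. Batch 1 read 492 and 602 CPM with siControl, against 216 and 299 CPM with siSbsn. Batch 2 read 272, 282 and 376 CPM with siControl, against 223, 259 and 239 CPM with siSbsn. The gap in batch 2 was narrow, since the highest siSbsn library lay at 259 CPM and the lowest siControl library at 272 CPM. The siSbsn level was 46.5% of siControl in batch 1, 77.9% in batch 2 and 63.9% over both batches. On the log2 scale the difference over both was -0.65 (unadjusted p = 0.00248, standard error 0.16), with q = 0.254 by edgeR and q = 0.0282 by DESeq2, so here too the call depends on the test. The exact permutation test, two-sided, again gave its smallest possible p of 0.0167, which the order of the libraries fixes here too.

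Both genes kept their direction without the libraries in doubt. Without the library labelled siSbsn batch 1 replicate 1, *Phlda1* was at a log2 fold change of -0.57 and *Ier3* at -0.50 over both batches (q = 0.384 each by edgeR). Leaving out siControl batch 1 replicate 1 gave -0.64 for each, with a q of 0.189 for *Phlda1* and 0.206 for *Ier3*. Over all such omissions of 1 library the range was -0.74 to -0.57 for *Phlda1* and -0.73 to -0.50 for *Ier3*. After removal of the length trend the values were -0.51 (q = 0.229) and -0.40 (q = 0.287), so that *Ier3*, whose transcript of 1131 bases is the shortest of the members, moved most.

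*Egr1*, the zinc finger transcription factor that responds most directly to ERK among the members, lies on the plus strand of chromosome 18 from 34861207 to 34864956. The siControl libraries of batch 1 had 11.5 and 16.3 CPM, against 18.2 and 13.7 CPM with siSbsn. In batch 2 its 6 libraries lay between 16.3 and 17.9 CPM. The log2 fold change over both batches was 0.083 (standard error 0.12, q = 0.657 by edgeR), and in batch 2 alone it was 0.0036 (standard error 0.070).

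Omitting the library labelled siSbsn batch 1 replicate 1, the 7 members other than *Etv4*, *Phlda1* and *Ier3* lay between -0.13 (*Dusp6*) and 0.067 (*Dusp5*) over both batches. Without siControl batch 1 replicate 1 they lay between -0.23 (*Dusp4*) and -0.0083 (*Egr1*), all below 0, and none passed in either case.

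**Figure D2:**
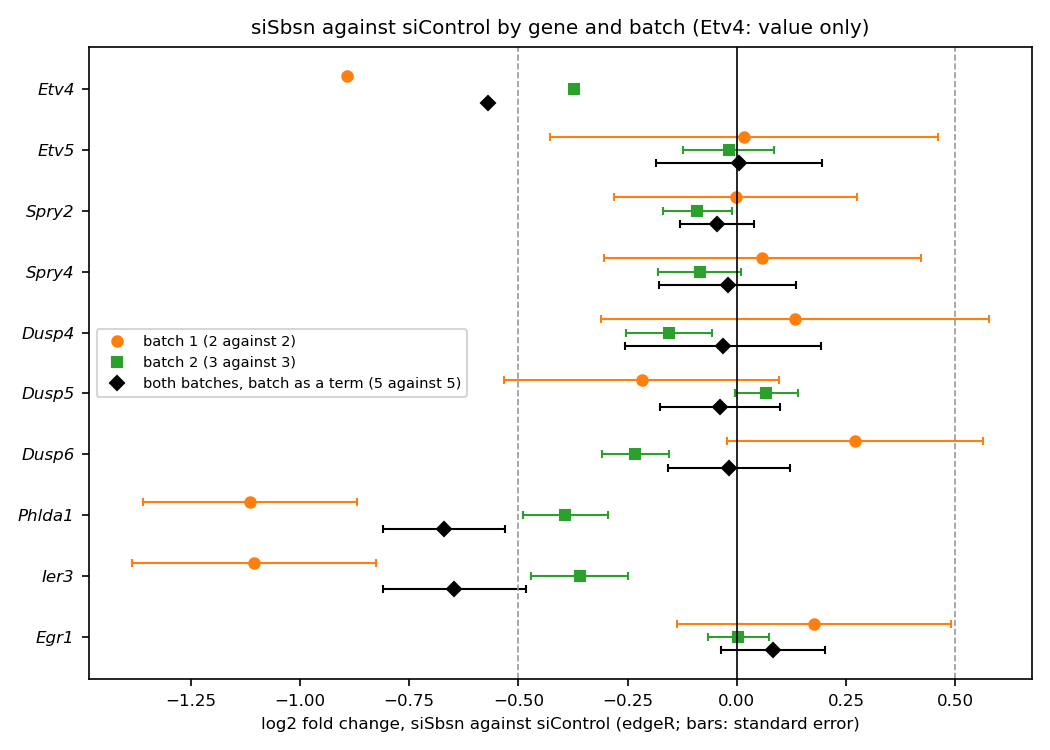
Log2 fold change of siSbsn against siControl (horizontal axis) for the 10 genes (vertical axis) in batch 1, in batch 2 and over both batches with batch as a term, by edgeR. Bars are standard errors and dashed lines mark 0.5 in both directions. *Etv4*, shown without error because it was picked for this difference, *Phlda1* and *Ier3* lie left of the other genes in each of the 3 fits, and the other 7 lie within 0.1 of 0 over both batches.

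Taking the members as a list, 3 of 10 were lower in every siSbsn library of both batches and 0 were higher in every one. Over all 12857 loci tested, 4.22% were lower and 5.13% were higher in this way. *Etv4* was chosen for this, which leaves 2 of the other 9. In batch 1 alone the siSbsn libraries were below in 3 members, where 25.9% of all loci were, and in batch 2 alone in 4 members, where 9.19% were. Both of these counts include *Etv4*, which was picked for this order. Calls required a q-value (Benjamini-Hochberg) under 0.05 together with a log2 fold change beyond 0.5 in size. By edgeR 0 of the 9 members tested were called in either direction over both batches, as were 0.0% of all loci in each direction, while 2464 loci had an unadjusted p under 0.05. DESeq2 called 2 of 9 lower, *Phlda1* and *Ier3*, against 0.327% of all loci. Since the members were chosen with earlier results of these data known, the 2 shares cannot be compared as an independent test. In batch 1 edgeR called 0 members (0.0% of all loci lower) and DESeq2 called *Phlda1* (0.209% lower). In batch 2 edgeR called 0 members (0.00774% lower, which is *Sbsn* alone), and DESeq2 called 0 members (0.0464% lower), although it gave *Phlda1* q = 0.046 at a log2 fold change of -0.39. The median log2 fold change of the 10 members over both batches was -0.035, and that of all loci was 0.0055. Of the members 8 of 10 were below 0, where 49.3% of all loci were, but 7 of the 10 lay within 0.1 of 0, and 5 of 10 were below 0 after removal of the length trend. The median and the counts below 0 include *Etv4*, picked for low siSbsn values.

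The siSbsn libraries lay further below siControl in batch 1 than in batch 2 for all 3 of the lower genes, but no tested difference between the batches passed by edgeR. *Sbsn* itself went the other way, at 103% of siControl in batch 1 (log2 fold change 0.041) and 32.0% in batch 2 (-1.64). In batch 1 the siSbsn library with the highest *Sbsn*, replicate 1, also held the lower siSbsn value of *Etv4*, *Phlda1* and *Ier3*. The cause was not tested. The difference of the log2 fold changes between the batches was 0.71 for *Phlda1* (standard error 0.18, q = 0.265), 0.73 for *Ier3* (standard error 0.25, q = 0.283) and 0.51 for *Etv4*, which was not tested. By edgeR's interaction test 0 members were called, as were 0.0% of all loci higher. DESeq2 called *Phlda1* alone of the members (0.70, q = 0.0455), where it called 0.404% of all loci higher. The median of this difference over the members, *Etv4* included, was -0.067 with all 10 siRNA libraries. It was -0.35 without siControl batch 1 replicate 2 and 0.34 without siControl batch 1 replicate 1, so that it rests on these libraries. Each of these 2 fits leaves 1 siControl library in batch 1, so their calls are not given.

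In batch 1 the levels in both pools were also set against the 2 libraries without siRNA. The siControl libraries were above and the siSbsn libraries below both libraries without siRNA in 2 members, *Etv4* and *Phlda1*. *Etv4* was picked for part of this order, which leaves 1 of the other 9 members, where 2.17% of all loci had this order. *Phlda1* was at 179 and 259 CPM without siRNA, and *Ier3* was at 261 and 434 CPM, below both siControl libraries but overlapping siSbsn. Against no siRNA the log2 fold change in siControl was 0.69 for *Phlda1* (standard error 0.23, q = 0.308), 0.68 for *Ier3* (standard error 0.30, q = 0.309) and 0.44 for *Etv4*, which was not tested. In siSbsn it was -0.44 for *Phlda1*, -0.43 for *Ier3* and -0.46 for *Etv4*. These values rest on single libraries. Without no siRNA batch 1 replicate 2, *Phlda1* was at 0.98 in siControl and -0.15 in siSbsn, and *Ier3* at 1.10 and -0.016. Without no siRNA batch 1 replicate 1, *Phlda1* was at 0.44 in siControl and -0.68 in siSbsn, and *Ier3* at 0.36 and -0.75. Omission of the library labelled siSbsn batch 1 replicate 1 gave -0.35 for *Phlda1* and -0.21 for *Ier3*, and that of siSbsn batch 1 replicate 2 gave -0.69 for *Ier3*. By edgeR no tested member passed with either pool: 0 were called in siControl (0.0% of 13176 loci in each direction) and 0 in siSbsn (0.0% lower). Both comparisons use the same 2 libraries without siRNA. *Spry4*, at 13.4 and 15.5 CPM without siRNA, was above both siRNA conditions of batch 1, with log2 fold changes of -0.51 in siControl (q = 0.383) and -0.47 in siSbsn. Its siControl value was -0.15 without siControl batch 1 replicate 1 and -1.01 without replicate 2, each with 1 siControl library left. The median of the members was -0.062 in siControl and -0.35 in siSbsn. In siSbsn 9 of 10 members were below 0 by edgeR and 8 of 10 by DESeq2, where 49.96% of all loci were by edgeR, and the count includes *Etv4*, picked for low siSbsn values. Without no siRNA batch 1 replicate 2 the median in siSbsn was -0.072, so that it rests on this library. After removal of the length trend the siControl values were 0.36 for *Phlda1*, 0.18 for *Ier3* and 0.22 for *Etv4*.

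**Figure D3:**
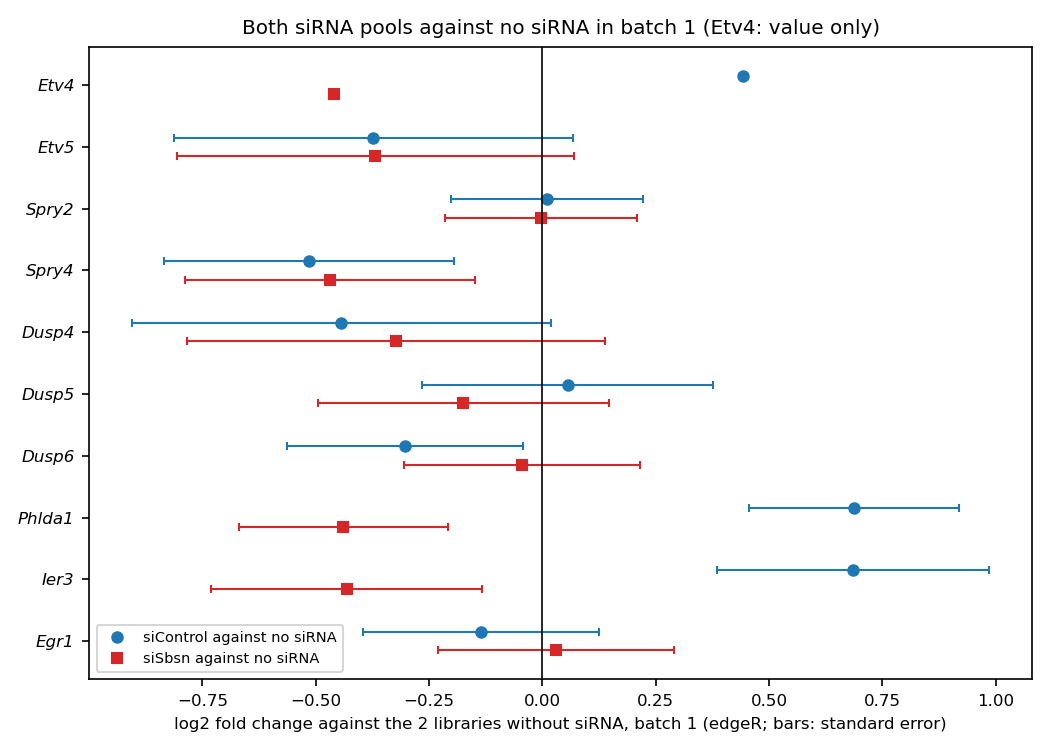
Log2 fold change of siControl and of siSbsn against the 2 libraries without siRNA (horizontal axis) for the 10 genes (vertical axis) in batch 1, by edgeR, with standard errors as bars and *Etv4* without error. *Etv4*, *Phlda1* and *Ier3* lie above 0 in siControl and below 0 in siSbsn, and *Spry4* lies near -0.5 in both.

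Between the batches *Etv4* could be tested like the rest. In the 10 siRNA libraries, *Dusp5* fell in batch 2 to 48.3% of its batch 1 level (log2 fold change -1.05, standard error 0.14, q = 0.000202 by edgeR), and its batches did not overlap. *Phlda1* fell to 64.2% (-0.64, standard error 0.14, q = 0.00363) and *Dusp6* to 70.3% (-0.51, standard error 0.14, q = 0.012). These 3 of 10 members were called lower, where 21.3% of all loci were, and 0 were called higher, where 16.4% were, so that the members' share lies near that of all loci. DESeq2 called 2 members lower, *Dusp5* and *Phlda1* (20.8% of all loci), with *Dusp6* at -0.49 inside the fold limit. *Ier3* had a q of 0.0313 at -0.48 and *Dusp4* a q of 0.135 at -0.43. *Etv4* (0.22, q = 0.14), *Etv5* (0.23, q = 0.327), *Spry2* (0.12, q = 0.265), *Egr1* (0.21, q = 0.16) and *Spry4* (-0.0040, q = 0.986) did not pass. The mean of *Etv4* in siControl was 19.3 ± 2.64 CPM (SD, n = 2) in batch 1 and 19.1 ± 1.18 CPM (SD, n = 3) in batch 2, while that of *Dusp5* was 56.1 ± 16.7 CPM (SD, n = 2) and 24.9 ± 0.923 CPM (SD, n = 3). After removal of the length trend only *Dusp5* stayed called (-0.92, q = 0.000717), with *Phlda1* at -0.42 and *Dusp6* at -0.41. *Dusp6* also lost its call by DESeq2 and with RLE scaling (-0.49 each) and without a low-count filter (-0.50). The same held without siControl batch 1 replicate 2 (-0.45), without the library labelled siSbsn batch 1 replicate 1 (-0.35) and without siSbsn batch 2 replicate 4 (-0.46), 5 (-0.50) or 6 (-0.48). *Dusp4* was called without siControl batch 1 replicate 1 (-0.67, q = 0.000719), and *Ier3* was called once the library labelled siSbsn batch 1 replicate 1 was omitted (-0.63, q = 0.00788). Leaving out siControl batch 2 replicate 3 (-0.50) or siSbsn batch 2 replicate 5 (-0.53) or 6 (-0.50) also brought *Ier3* past the limit.

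**Figure D4:**
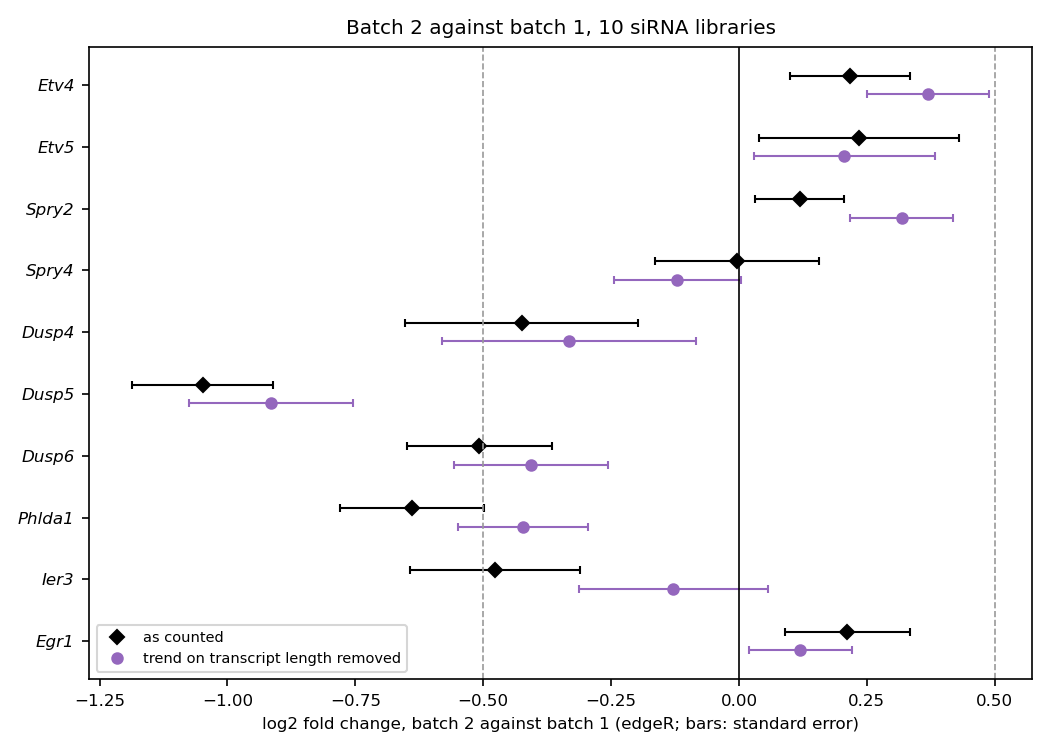
Log2 fold change of batch 2 against batch 1 (horizontal axis) for the 10 genes (vertical axis) in the 10 siRNA libraries, by edgeR, as counted and after removal of each library's trend on transcript length. Bars are standard errors and dashed lines mark 0.5 in both directions. *Dusp5* lies beyond -0.5 in both fits, and *Phlda1* and *Dusp6* do so only as counted. *Egr1* lies within 0.25 of 0 in both fits.

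Across the 12 libraries, with log2 CPM centred within each batch, the members did not all vary together. *Phlda1* and *Ier3* had a Pearson r of 0.98, and *Etv4* had 0.95 with *Phlda1* and 0.92 with *Ier3*. *Etv5* had only 0.15 with *Etv4*, but 0.95 with *Dusp4*, 0.80 with *Dusp5* and 0.79 with *Spry4*. *Spry4* had 0.41 with *Dusp5*, less than with *Egr1* (0.70) or *Dusp6* (0.64), and *Dusp5* had 0.54 with *Ier3*. *Dusp6* and *Egr1* had 0.86. The library with the steep length trend held the lowest value of *Etv5*, *Spry4*, *Dusp4* and *Egr1*, and replicate number 2 was above number 1 in all 3 conditions of batch 1 for 6 of the 10 members (*Etv4*, *Etv5*, *Dusp4*, *Dusp5*, *Phlda1* and *Ier3*), where 28.7% of all loci were. These r describe libraries that share batches, conditions and technical differences, and they have no test. Centring within batch keeps the difference between siSbsn and siControl for which *Etv4* was picked, so the r of *Etv4* can restate that choice.

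**Figure D5:**
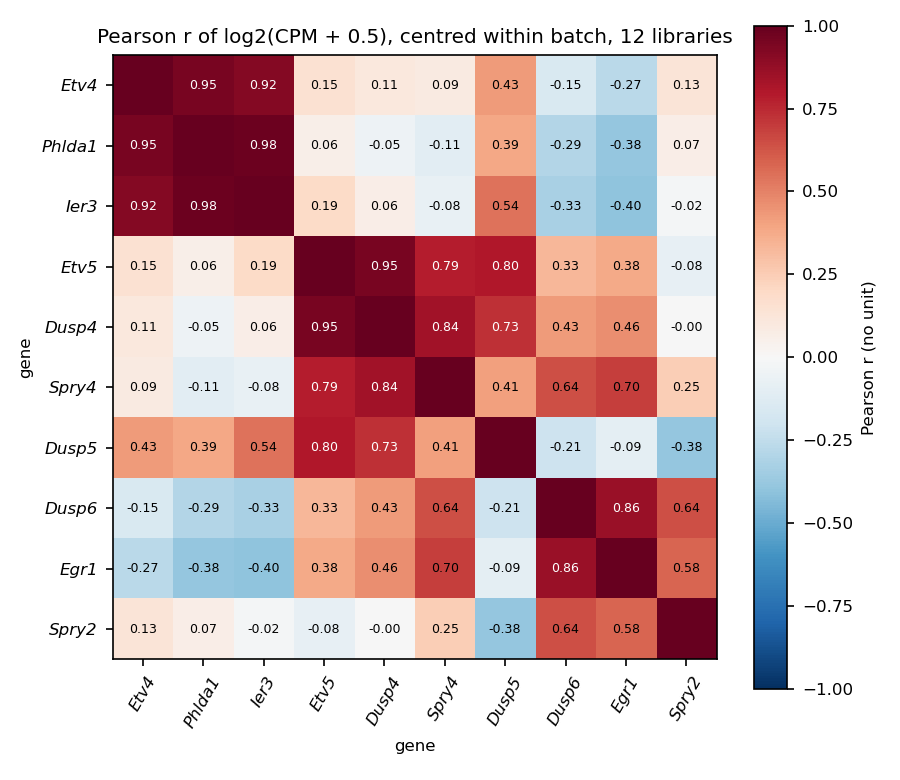
Pearson r between the 10 genes (both axes) of log2(CPM + 0.5) centred within batch, over the 12 libraries, with each r printed and coloured from -1 to 1. The block at the upper left is *Etv4*, *Phlda1* and *Ier3*. *Etv5* has 0.95 with *Dusp4*, 0.79 with *Spry4* and 0.80 with *Dusp5*, but *Spry4* and *Dusp5* have only 0.41 with each other.

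Of 13561 loci, the 5 outside the members most like *Etv4* by the same measure were *Plaur* (r = 0.972), *Procr* (0.969), *Micall2* (0.967), *Wnt7a* (0.958) and the joined locus *Mcm3+AK205147* (0.949). *Plaur* codes for the urokinase receptor and ranged from 23.3 to 96.2 CPM, *Procr* for the endothelial protein C receptor, *Wnt7a* for a Wnt ligand, and *Mcm3* for a part of the replicative helicase. *Phlda1* came next at rank 6 and *Ier3* at rank 19, whereas *Dusp5*, the nearest of the other members, was at rank 3339. *Etv4* was picked for low siSbsn values and only the batch means were removed, so a high r here can restate low siSbsn counts.

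The rest of the pathway was read from 3 lists. Of 24 other genes known to be induced by ERK, 23 were tested for siSbsn against siControl over both batches and 0 were called by edgeR. Their median log2 fold change was -0.013, 12 were below 0, and 2 were lower in every siSbsn library of both batches, as were 4.22% of all loci. The lowest were *Fosl1*, an AP-1 subunit counted together with *Ccdc85b* (-0.60, standard error 0.16, q = 0.254), and *Dusp2*, a further phosphatase (-0.45, q = 0.254). The batch 1 mean of *Fosl1+Ccdc85b* was 75.0 ± 9.49 CPM (SD, n = 2) with siControl, against 34.9 ± 5.85 CPM (SD, n = 2) with siSbsn. In batch 2 the means were 70.6 ± 6.65 CPM (SD, n = 3) with siControl, against 57.8 ± 2.43 CPM (SD, n = 3) with siSbsn, and DESeq2 called it lower (q = 0.0313). The highest were *Egr3*, a relative of *Egr1* (0.51, standard error 0.21, q = 0.257), and the ephrin receptor *Epha4* (0.35, q = 0.288). After removal of the length trend *Dusp2* was at -0.25 and *Epha4* at 0.16. *Dusp2* was near the floor, at 0.86 to 2.32 CPM, and its conditions overlapped in batch 2. *Egr3* stood apart in batch 1 only, where its mean was 12.7 ± 1.23 CPM (SD, n = 2) with siControl, against 27.5 ± 10.1 CPM (SD, n = 2) with siSbsn. Without siRNA *Egr3* was at 14.9 and 30.8 CPM, above both siControl libraries of batch 1 and overlapping siSbsn. *Fosl1+Ccdc85b*, at 32.2 and 52.5 CPM without siRNA, lay below both siControl libraries of batch 1 and overlapped siSbsn.

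The 21 genes of the cascade itself were all tested and 0 were called. Their median was 0.14, which went to 0.038 after removal of the length trend. As counted, 16 were above 0, while 49.3% of all loci were below 0. The lowest were the kinase *Map2k2* (-0.38, q = 0.257) and *Hras* (-0.26, q = 0.36), and the highest were the kinase *Braf* (0.48, q = 0.256) and the RAS exchange factor *Sos1* (0.42, q = 0.28). *Map2k2* was below siControl in every siSbsn library of both batches, as were 4.22% of all loci, while *Hras*, *Braf* and *Sos1* overlapped between the conditions in batch 2. Without the length trend *Braf* was at 0.13 and *Sos1* at 0.13, while *Map2k2* was at -0.26. Of 18 other ETS factors 16 were tested and 0 were called, with a median of 0.078. The lowest was *Elf3*, an epithelial ETS factor (-0.64, standard error 0.21, q = 0.254), with a batch 1 mean of 38.8 ± 0.836 CPM (SD, n = 2) with siControl, against 16.0 ± 4.28 CPM (SD, n = 2) with siSbsn, and overlapping conditions in batch 2. Without siRNA *Elf3* was at 16.3 and 30.9 CPM, below both siControl libraries of batch 1 and overlapping siSbsn. The ETS repressor *Erf* followed (-0.25, q = 0.256). The highest were *Elk4*, counted together with *Mfsd4a* (0.49, standard error 0.14, q = 0.254) and above siControl in every siSbsn library of both batches, and *Elf5* (0.49, q = 0.267). Without siRNA *Elk4+Mfsd4a* was at 84.6 and 88.3 CPM, above both siControl libraries of batch 1 and within the range of siSbsn. *Elf5* overlapped between the conditions in both batches and was near the floor in batch 2, at 0.29 to 0.50 CPM.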

How the data were processed

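RNA-Seq was analysed in 12 libraries, with condition, batch and replicate number taken from the sample labels. The study's methods name triplicates, and all 12 libraries were used as labelled. Per the study's methods, the authors aligned reads to mm10 with STAR, kept uniquely aligned reads and deposited whole-number counts per gene of the UCSC KnownGene annotation, without normalization, so genes with near-identical copies can be undercounted. The sources used name no strand setting for counting. Locus starts are printed after adding 1, since 37.4% of them then matched GENCODE and 3.64% did as given.

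Counts were TMM-normalized and tested with edgeR 4.0.16 (R 4.3.3, limma 3.58.1) by the quasi-likelihood test after filterByExpr by treatment, with batch as a term, and q-values were adjusted over all loci tested. Standard errors were obtained as the size of a log2 fold change over the square root of its F statistic. The study used DESeq2, and DESeq2 1.42.0 was an alternative, with limma-voom, other normalization, no filter, removal of a lowess trend (span 0.5) on transcript length and each library left out in turn. CPM uses loci passing the filter and TMM factors of all 12 libraries, and log2 values of single libraries add 0.5. The scripts were tested on simulated data. Total counts (median 36206534) set the counting precision, and the libraries of a condition and batch differed by more than counting noise in all 9 pairs (chi-square per degree of freedom 4.66 to 216).

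The members and gene lists were chosen with earlier results of these data known. Named are the 10 members, *Sbsn*, the 2 lowest and 2 highest loci of each list, and the 5 loci most like *Etv4*.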

Additional observations from a re-analysis of the deposited data

How the results depend on the processing

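The log2 fold changes of *Etv4*, *Phlda1* and *Ier3* for siSbsn against siControl over both batches stayed below 0 under all 20 alternatives, at -0.61 to -0.46, -0.75 to -0.51 and -0.73 to -0.40. The other 7 members lay near 0, and each changed sign under at least 1 alternative. Without the length trend *Etv5* was at -0.025, *Spry2* at 0.095, *Dusp4* at 0.031, *Dusp5* at 0.058 and *Dusp6* at 0.045, and *Egr1* was at -0.023 in batch 2. *Etv5* was at -0.00093 with all 12 libraries and -0.095 with no siRNA pooled with siControl, *Dusp4* at 0.033 by limma-voom and 0.027 with the replicate block, and *Dusp6* at 0.025 with no batch term. Batch 2 against batch 1 gave *Spry4* 0.013 by DESeq2 and RLE scaling and 0.0047 without a filter. Calls depended on the test. Over both batches edgeR called 0 loci and DESeq2 called 51 higher and 42 lower (41 and 37 with its beta prior), with 2 members among them in either form. In batch 1 DESeq2 called 126 loci higher and 27 lower of 12899, with 1 member. There edgeR without a filter called 396 higher and 82 lower of 18219, with 2 members. In batch 2 the counts were 1 higher and 6 lower by DESeq2, 2 and 7 without a filter, and 3 and 2 without the length trend. For siControl against no siRNA, 26 loci were called lower by DESeq2, and 234 were called higher and 581 lower without a filter. For the interaction DESeq2 called 52 higher and 156 lower with 1 member, and 17 were called lower without a filter. For batch 2 against batch 1 without the length trend, 1 member was called, beside 1849 loci higher and 2450 lower of 12857. DESeq2 called 2 members there.

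With 1 library left out, the range over both batches was -0.15 to 0.21 for *Etv5*, -0.16 to 0.12 for *Spry4*, -0.23 to 0.20 for *Dusp4*, -0.11 to 0.10 for *Dusp5*, -0.14 to 0.034 for *Dusp6* and -0.0083 to 0.15 for *Egr1*. In batch 2 it was -0.052 to 0.058 for *Etv5* and -0.029 to 0.043 for *Egr1*, in batch 1 -0.42 to 1.00 for *Dusp4*, and between the batches -0.16 to 0.18 for *Spry4*. For calls, batch 1 gave 2 to 1700 loci higher, 0 to 1699 lower, 0 to 3 members and a member median of -0.43 to 0.25. Batch 2 gave 0 to 5 higher and 1 to 5 lower. The interaction gave 0 to 1778 higher, 0 to 2620 lower, 0 to 5 members and a median of -0.35 to 0.34. siControl against no siRNA gave 0 to 1740 higher, 0 to 1473 lower, 0 to 1 member and a median of -0.32 to 0.087. The largest counts came without siControl batch 1 replicate 2, which leaves the library with the steep length trend as the only siControl library of batch 1, assumed to vary like the others. siSbsn against no siRNA gave a median of -0.57 to -0.072, the latter without no siRNA batch 1 replicate 2. The cause of these shifts was not tested.

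Replicate numbers 1 and 2 are shared by the conditions of batch 1 only. Same-numbered libraries deviated together (r = 0.457 for siControl and siSbsn, 0.379 for siControl and no siRNA, 0.805 for siSbsn and no siRNA), but with 2 pairs and no label of a shared culture they share only a number. With a replicate block edgeR called 0 loci over both batches (4100 at an unadjusted p under 0.05, smallest q 0.113). In batch 1 it called 1227 higher and 581 lower of 12899 loci tested. Among those called lower were 2 members, *Phlda1* (-1.12, q = 0.000124) and *Ier3* (-1.12, q = 0.000113).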
